A study of Homo sapiens with 6 samples.

Results

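Alveolar type 2 cells line the air sacs of the lung and make pulmonary surfactant, the film of phospholipid and protein that lowers surface tension. Described here are 10 genes tied to that cell type, measured in A549 cells, a human lung adenocarcinoma line often used as a stand-in for it. The genes were chosen by name, with earlier results of these data known. SFTPB, SFTPD, ABCA3, LAMP3, LPCAT1, ETV5, NAPSA, NKX2-1 and SLC34A2 mark type 2 cells. AGER marks the thin type 1 cells that type 2 cells give rise to. All 10 were among the 20824 genes listed in the files. One group of 3 libraries carried a scrambled shRNA, which the labels treat as the wild-type control, and the other group of 3 carried an shRNA that knocks down C19orf12, a gene for a membrane protein of mitochondria and endoplasmic reticulum. The RNA was selected with oligo-dT beads, and the total estimated count of a library was 10229890 to 10647587. The labels state neither the number of hairpins nor whether replicates were separate cultures. All 3 knockdown titles share a number before the replicate number, and its meaning is not given. The tests thus weigh differences only against the scatter among these libraries, which may be technical.

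The surfactant protein SFTPB, the lipid pump ABCA3 and the membrane protein LAMP3 belong to the lamellar body. This lysosome-related organelle stores surfactant before release. SFTPD is a secreted surfactant protein. LPCAT1 makes the dipalmitoyl form of phosphatidylcholine by which surfactant works, and NAPSA is an aspartic protease that trims the surfactant protein B precursor. The homeobox factor NKX2-1 switches on surfactant genes in the lung, and ETV5 is an ETS factor that acts below FGF and ERK signalling and helps keep cells in the type 2 state. SLC34A2 takes phosphate back up at the cell surface, and AGER encodes the receptor for advanced glycation end products (RAGE).

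As a check of the labels, the C19orf12 transcript stood at 42.5, 41.1 and 63.3 CPM (counts scaled to library size, with TMM between libraries) in the scramble group and at 24.2, 26.4 and 25.2 CPM in the knockdown group, in the order of the replicate numbers, which is the order used throughout. Each knockdown library lay under each scramble library (log2 fold change -0.95, SE 0.20, adjusted p = 0.015 by edgeR), but the call was lost when any 1 knockdown library was left out. Scramble replicate 3 differed most from the rest: its log2 CPM correlated across genes at 0.952 and 0.953 with the other scramble libraries, which correlated with each other at 0.991. The correlations of scramble replicates 1 and 2 with the knockdown libraries were 0.959 to 0.96, and genes are not independent replicates. With genes divided into 10 classes by GC content, its median log2 difference from the other scramble libraries was -1.03 in the class lowest in GC and 0.51 in the class highest. The tests of the 10 genes and the counts called in most lists are therefore also given without this library. edgeR's common biological coefficient of variation was 18.9% with it and 2.97% without it, so small differences pass the test in the second case.

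Of the 10 genes, 3 fell and 1 rose in the knockdown libraries. LAMP3, ABCA3 and ETV5 fell to 35%, 55.2% and 51% of the scramble level, and LPCAT1 rose 3.59-fold. The type 2 transcripts SFTPB, at a few CPM, and SFTPD, NAPSA, NKX2-1 and SLC34A2, at about 1 CPM or less, were scarce in both groups, and so was the type 1 marker AGER, at a few CPM. Of the 10 genes, 6 passed the filter on low counts and were tested by edgeR's quasi-likelihood test, with p-values adjusted by Benjamini-Hochberg over all 14812 genes tested and 0.05 as the threshold. Over all genes 11.5% were called, 5.89% higher and 5.64% lower. Without scramble replicate 3 the same 4 genes were called in the same directions, where 49.5% of 15029 genes were called, 25.7% higher and 23.8% lower. Values in the 3 scramble libraries did not overlap those in the 3 knockdown libraries for 5 of the 6 tested genes, against 37% of all genes tested. The median log2 fold change of the 6 was -0.75, and that of all genes tested was 0.02. In bulk RNA, fewer cells of a kind and less RNA per cell cannot be told apart.

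**Figure D1:**
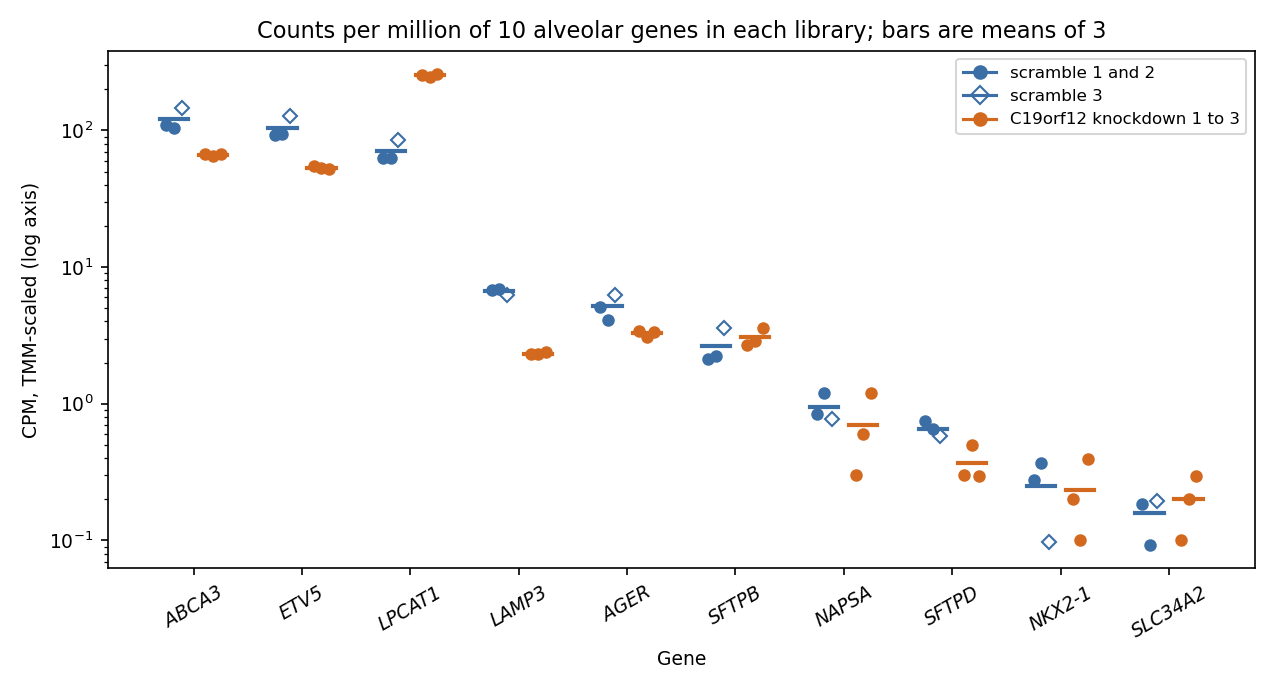
TMM-scaled CPM on a log axis for each of the 10 genes (x axis) in each library, with scramble in blue (scramble replicate 3 as an open diamond), C19orf12 knockdown in orange, and a bar at each mean of 3. LPCAT1 rises from 70.6 to 253 CPM on average, ABCA3, ETV5 and LAMP3 fall, and SFTPD, NAPSA, NKX2-1 and SLC34A2 lie near or under 1 CPM.

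To set the genes side by side with their regulatory DNA, the sequence from 250 to 53 bases before an annotated transcript start was taken from RefSeq (GRCh38.p14), where 8 of the 10 genes had an entry. Shown are the windows of 2 genes that changed in opposite directions, ABCA3 and LPCAT1, and of SFTPB and SFTPD, which were scarce. Each is printed from 5′ to 3′ on the strand of its gene in lower case, with CAAG or its reverse complement CTTG, the core of the NKX2-1 motif, in capitals. The windows are chr16:2340781-2340978 for ABCA3, chr5:1524013-1524210 for LPCAT1, chr2:85668252-85668449 for the downstream start of SFTPB and chr10:79949158-79949355 for SFTPD, all on the minus strand.
ABCA3: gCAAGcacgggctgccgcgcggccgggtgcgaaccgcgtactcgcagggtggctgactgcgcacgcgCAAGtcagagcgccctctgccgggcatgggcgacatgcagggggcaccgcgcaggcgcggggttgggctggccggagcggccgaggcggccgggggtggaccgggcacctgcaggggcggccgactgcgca
LPCAT1: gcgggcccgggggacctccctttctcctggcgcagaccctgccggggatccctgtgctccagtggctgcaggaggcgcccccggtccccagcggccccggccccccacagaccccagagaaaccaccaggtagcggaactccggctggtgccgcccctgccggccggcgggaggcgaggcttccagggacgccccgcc
SFTPB: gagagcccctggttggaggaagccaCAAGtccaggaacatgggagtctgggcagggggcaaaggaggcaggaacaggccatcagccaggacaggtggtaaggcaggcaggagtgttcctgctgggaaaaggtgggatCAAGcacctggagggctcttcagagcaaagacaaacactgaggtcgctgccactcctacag
SFTPD: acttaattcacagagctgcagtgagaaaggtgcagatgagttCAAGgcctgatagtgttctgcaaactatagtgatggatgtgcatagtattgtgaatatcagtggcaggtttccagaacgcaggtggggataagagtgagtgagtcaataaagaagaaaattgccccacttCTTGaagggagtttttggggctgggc

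The windows of the abundant pair and the scarce pair differed in composition. GC content was 77.8% for ABCA3 and 76.8% for LPCAT1, with 28 and 17 CpG pairs. SFTPB had 59.1% GC and SFTPD 44.9%, with 1 CpG pair each, where the median of 35116 RefSeq windows of the same length was 57.1% and 7 pairs. The upstream start of SLC34A2, a gene near 0 here, had 71.7% GC and 28 CpG pairs. The core CAAG occurred 2 times each in the ABCA3, SFTPB and SFTPD windows and 0 times in that of LPCAT1, and 74.7% of all windows held it on either strand. A further SFTPB window, before its upstream start (chr2:85668794-85668991, not printed), held 0 matches to any motif searched. The longer NKX2-1 motif CTCAAG was in none of these 4 windows and in 8.47% of all. SFTPD held the C/EBP motif TTGCNNAA once (7.53% of all windows) and SFTPB the ETS motif GAGGAA once (18.9% of all), and neither FOXA motif (TGTTTAC or TGTTTGC) nor the STAT3 motif TTCNNNGAA occurred in the 4. Both strands were searched, and a match is a description of letters, not of binding.

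Among the lamellar body genes, ABCA3, which pumps phosphatidylcholine into the organelle, was the most abundant. Its CPM was 110, 103.8 and 147 in the scramble libraries and 66.9, 65.2 and 67.2 in the knockdown libraries. Each knockdown library lay under each scramble library, and scramble replicate 3 was the highest of the 6. The means were 120.3 ± 23.4 and 66.5 ± 1.09 CPM (SD, n = 3 each), a log2 fold change of -0.86 (SE 0.17, adjusted p = 0.0127 by edgeR). Without scramble replicate 3 it was -0.69 (SE 0.05, adjusted p = 3.3e-10). ABCA3 was no longer called when knockdown replicate 1, 2 or 3 was left out, with edgeR's adjusted p at 0.0812, 0.086 and 0.0831 and the log2 fold change at -0.86, -0.85 and -0.86.

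LAMP3, a lysosome-associated membrane protein that in the lung marks lamellar bodies, had the lowest log2 fold change of the tested genes. It stood at 6.78, 6.87 and 6.29 CPM in the scramble libraries and at 2.3, 2.3 and 2.38 CPM in the knockdown libraries, from 64.7 to 73.7 and 23.2 to 24.4 estimated counts. The groups did not overlap, and for this gene scramble replicate 3 was the lowest of its group. LAMP3 fell by 1.51 on the log2 scale (SE 0.19, adjusted p = 0.00126 by edgeR), and by 1.55 without scramble replicate 3 (adjusted p = 1.93e-06). Its relatives LAMP1 and LAMP2, which coat lysosomes in most cells, were at 0.21 (adjusted p = 0.553) and 0.20 (adjusted p = 0.663) by edgeR. LAMP1 was at 0.42 (adjusted p = 1.56e-07) without scramble replicate 3, and LAMP2 at -0.04 (adjusted p = 0.543). These relatives, and those of LPCAT1, ETV5 and SLC34A2 below, are named outside the rule for named genes, after their values were seen.

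SFTPB, the hydrophobic surfactant protein without which newborn lungs collapse, was detected at a low level that did not pass the test. Its CPM was 2.14, 2.23 and 3.58 in the scramble libraries and 2.7, 2.9 and 3.58 in the knockdown libraries. The groups overlapped, since scramble replicate 3 lay level with the highest knockdown library. edgeR gave a log2 fold change of 0.21 (SE 0.27, adjusted p = 0.702) and one of 0.48 (SE 0.27, adjusted p = 0.152) without that library.

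SFTPD, the surfactant collectin that binds microbial sugars, was counted 8, 7 and 6 times in the scramble libraries and 3, 5 and 3 times in the knockdown libraries, too few to pass the filter. The groups did not overlap, with sums of 21 and 11 counts. The exact permutation test gave p = 0.1 (2-sided), which is the smallest that 3 libraries against 3 allow, and without the filter the edgeR log2 fold change was -0.83 (adjusted p = 0.413).

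NAPSA, the protease of the group, had 9.27, 12.84 and 8 estimated counts in the scramble libraries and 3, 5.69 and 11.83 in the knockdown libraries. Knockdown replicate 3 lay among the scramble values, so the groups overlapped (exact permutation test, p = 0.4, 2-sided). With scramble replicate 3 left out NAPSA passed the filter, at a log2 fold change of -0.54 (SE 0.52, adjusted p = 0.414 by edgeR). NAPSB is a close copy of this gene, and reads common to both could have been split between them in the estimated counts, so the NAPSA values are uncertain.

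LPCAT1, the acyltransferase that remodels phosphatidylcholine into its surfactant form, was the member that rose. LPCAT1 was at 63.3, 62.8 and 85.7 CPM in the scramble libraries and at 256, 246 and 258 CPM in the knockdown libraries. The lowest knockdown library held far more than the highest scramble library, and means were 70.6 ± 13.1 and 253 ± 6.22 CPM (SD, n = 3 each). By edgeR this was 1.84 on the log2 scale (SE 0.17, adjusted p = 0.000199), and 2.01 (SE 0.05, adjusted p = 2.93e-19) without scramble replicate 3. The genes of 3 related acyltransferases, LPCAT2, LPCAT3 and LPCAT4, were not called with all 6 libraries. By edgeR LPCAT2 was at -0.07 (adjusted p = 0.888), LPCAT3 at -0.0048 (adjusted p = 0.992) and LPCAT4 at -0.35 (adjusted p = 0.299). Without scramble replicate 3, LPCAT3 was called at 0.17 (adjusted p = 0.034 by edgeR), while LPCAT2 (-0.24) and LPCAT4 (-0.14) were not.

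ETV5 was the most abundant transcription factor among the 10. It was at 91.9, 94.7 and 127.8 CPM in the scramble libraries and at 55.3, 52.8 and 52.1 CPM in the knockdown libraries, with no overlap. Means were 104.8 ± 20 and 53.4 ± 1.67 CPM (SD, n = 3 each), which edgeR put at -0.97 on the log2 scale (SE 0.17, adjusted p = 0.00715). With scramble replicate 3 left out, ETV5 was at -0.80 (adjusted p = 5.49e-11). Leaving out knockdown replicate 2 or 3 instead ended the call, with edgeR's adjusted p at 0.0564 and 0.0591. By edgeR its relatives ETV4 (-0.50, adjusted p = 0.113) and ETV1 (0.45, adjusted p = 0.531) were not called, and ETV4 was called when scramble replicate 3 was left out (-0.32, adjusted p = 6.95e-05).

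NKX2-1, the master factor of lung epithelium, was at the edge of detection, with 3, 4 and 1 counts in the scramble libraries and 2, 1 and 4 in the knockdown libraries. The level that 3 counts stand for was 0.278 to 0.3 CPM in these libraries, so no fold change is given. SLC34A2, the phosphate carrier of type 2 cells, had 2.04, 1.39 and 2.03 estimated counts in the scramble libraries and 1.06, 1.72 and 3 in the knockdown libraries, which is at or under that floor in each library. The broadly expressed phosphate importers SLC20A1 and SLC20A2 were at 33.9 and 6.19 FPKM (fragments scaled to transcript length and library size) on average in the scramble libraries, with log2 fold changes of -0.12 and -0.02 (adjusted p = 0.703 and 0.953 by edgeR).

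AGER, the type 1 marker among the 10, was at 5.11, 4.08 and 6.29 CPM in the scramble libraries and at 3.4, 3.1 and 3.38 CPM in the knockdown libraries. The groups did not overlap, yet the log2 fold change of -0.65 (SE 0.23) did not pass the edgeR test (adjusted p = 0.106), nor did -0.48 (adjusted p = 0.0793) without scramble replicate 3. The mean length of its transcripts, as the authors' files give it, was 1635, 1596 and 1639 bases in the scramble libraries and 1519, 1546 and 1608 bases in the knockdown libraries, with overlap.

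**Figure D2:**
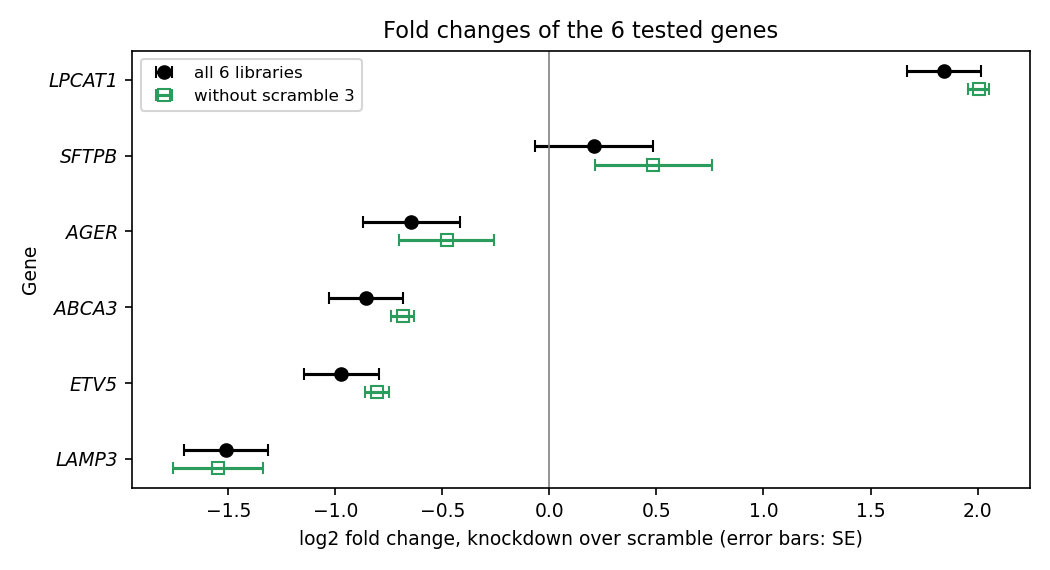
Log2 fold change of knockdown over scramble (x axis) with its SE for the 6 genes that passed the filter, with all 6 libraries (filled circles) and without scramble replicate 3 (open squares). LPCAT1 lies at 1.84 and 2.01, and LAMP3 at -1.51 and -1.55. The intervals of SFTPB are the widest of the 6 in both fits.

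The library that stood apart moved with most of these genes. In scramble replicate 3, ABCA3, ETV5, LPCAT1, AGER and SFTPB exceeded the mean of the other scramble libraries by 0.46, 0.45, 0.44, 0.45 and 0.67 on the log2 scale, and LAMP3 was at -0.11. The medians of genes in the same GC class were 0.51 for ABCA3, AGER and SFTPB (58.7 to 60.4% GC), 0.49 for LPCAT1 (56.1%), 0.05 for ETV5 (48.5%) and -0.26 for LAMP3 (45%). LPCAT1, LAMP3, ABCA3 and ETV5 were called with and without the library, and the part of GC content in these values was not tested.

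Scaled for length, ETV5 had the highest level of the 10 in the scramble libraries, at 25.7 ± 3.69 FPKM (SD, n = 3), above 85.5% of all genes listed. ABCA3 and LPCAT1 followed at 18.2 ± 2.68 and 17.8 ± 2.46 FPKM, and their ranges overlapped. AGER (3.24 FPKM) and LAMP3 (2.01 FPKM) came next without overlap, then SFTPB (0.937), NAPSA (0.62) and SFTPD (0.523), each of which overlapped its neighbour among these 3. NKX2-1 (0.117 FPKM) and SLC34A2 (0.0433 FPKM) were last and overlapped each other. In the knockdown libraries LPCAT1 led at 61.5 ± 1.61 FPKM, above 94.6% of listed genes, followed without overlap by ETV5 (12.6), ABCA3 (9.71), AGER (2.08) and SFTPB (1.04). LAMP3, at 0.687 FPKM, now lay under SFTPB, and its range overlapped that of NAPSA (0.43).

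**Figure D3:**
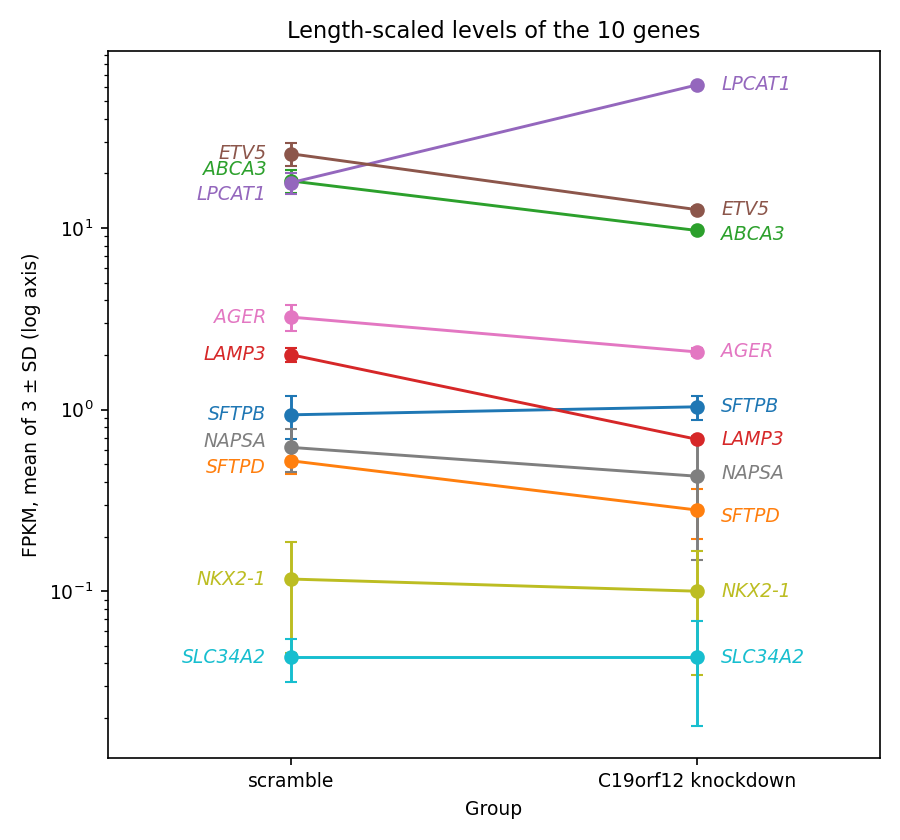
Deposited FPKM on a log axis (y axis, mean of 3 with SD) for each of the 10 genes in the scramble and knockdown groups. LPCAT1 passes ETV5 and ABCA3, from 17.8 to 61.5 FPKM, LAMP3 drops under SFTPB, and NKX2-1 and SLC34A2 lie at the bottom in both groups.

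Further type 2 markers were largely missing, so the name of the cell type is carried here by a few genes. Of 22 such genes, 5 were in no file (SFTPA2, SFTA3, PGC, ACOXL and HLA-DRA) and 7 more had at most 3 counts in each library, among them the surfactant genes SFTPC and SFTPA1. These data thus do not show the full type 2 profile in either group. SFTPA1 and SFTPA2 are near-identical, so their counts are uncertain. Of the 8 that were tested, 1 rose and 0 fell (median log2 fold change -0.38). MUC1, a membrane mucin, rose from 2.95 to 5.62 CPM (log2 fold change 0.93, SE 0.21, adjusted p = 0.0187 by edgeR). CTSH, a cathepsin that also cuts the surfactant protein B and C precursors, was at -0.67 (adjusted p = 0.0871) and the kinase gene LRRK2 at -0.31 (adjusted p = 0.576). Both were called lower without scramble replicate 3 (-0.43 and -0.61, adjusted p = 0.00839 and 2.68e-07 by edgeR), and LRRK2 was at 19.7 CPM in that library against 45.2 and 45.7 in the other scramble libraries. In the lists from here on, calls are with all 6 libraries unless a library is said to be left out. Each count called in a list stands beside a share over all genes of 11.5%, or 49.5% without scramble replicate 3. The MUC1 call was lost without scramble replicate 1 or 2 and without knockdown replicate 1 or 3, where 0 of these markers were called.

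Beside AGER, 12 of 18 type 1 markers were tested, of which 5 rose and 1 fell (median log2 fold change 0.83; 8 and 4 without scramble replicate 3). The basement membrane collagen genes COL4A3 (1.39, adjusted p = 0.00581 by edgeR) and COL4A4 (1.94, adjusted p = 0.000148) rose, as did the receptor gene GPRC5A (1.53, adjusted p = 0.000471) and EMP2 (0.85, adjusted p = 0.00667). The caveolin genes CAV1 (-0.21, adjusted p = 0.519) and CAV2 (-0.44, adjusted p = 0.184) were not called by edgeR, but were lower with scramble replicate 3 left out (-0.36 and -0.60, adjusted p = 2.77e-06 and 5.35e-08). The 1 that fell was ANXA3 (-0.97, adjusted p = 0.0111 by edgeR). AQP5 was in no file, and HOPX, AQP4 and CLIC5 had at most 1 count in each library. PDPN, with at most 6.96 estimated counts in a library, was not tested either. These data thus do not show the full type 1 profile in either group. Without knockdown replicate 2 or 3 the count called was 3 of these markers. The keratin-rich state that type 2 cells pass through on the way to type 1 cells is marked by 12 genes, all tested, of which 8 rose and 2 fell (median 1.35; 9 and 2 without scramble replicate 3). Among them KRT17 (3.46), KRT8 (1.79), SFN (1.55) and KRT18 (1.31) rose, with adjusted p of 0.000187, 0.000246, 0.000899 and 0.00135 by edgeR. The fold change of KRT17 is uncertain, since its scramble libraries held 4, 3.77 and 7 estimated counts, near the floor of 3. The 2 that fell were AREG (-1.075) and TNFRSF12A (-0.89), with adjusted p of 0.00205 and 0.0155 by edgeR. KRT7 (-0.0025) and CLDN4 (-0.01) were not called. KRT7 was called at 0.21 with scramble replicate 3 left out.

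**Figure D4:**
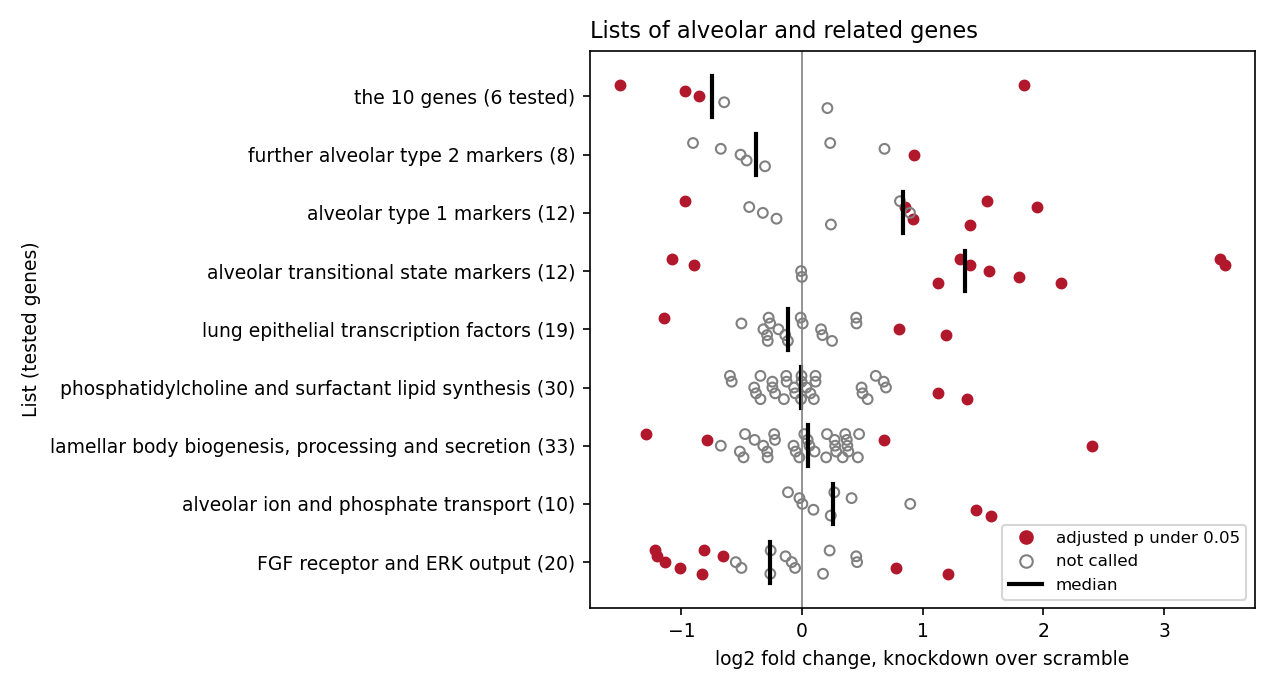
Log2 fold change of knockdown over scramble (x axis) for each tested gene of the described set and of 8 lists (rows, with the number tested), with called genes filled in red, others open and the median as a black bar. The transitional markers have a median of 1.35 and the phosphatidylcholine genes one of -0.01.

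ETV5 was set beside 20 genes of FGF receptors and ERK output, all tested. Of these 7 fell and 2 rose, where 5.64% and 5.89% of all genes did (list median log2 fold change -0.26; 11 fell and 4 rose without scramble replicate 3). The feedback phosphatase gene DUSP6 fell from 45.5 to 20.7 CPM (-1.14, SE 0.15, adjusted p = 0.00159 by edgeR), and the ERK pathway inhibitors SPRY2 (-1.22) and SPRY4 (-0.81) fell. FGFR3, a receptor, rose (1.21, adjusted p = 0.00229), while FGFR1 (-0.55, adjusted p = 0.0653) and DUSP4 (0.46, adjusted p = 0.0683) did not pass. Without scramble replicate 1 or 2, 4 were lower and 1 higher, and without knockdown replicate 1, 2 or 3, 2 were lower and 1 higher.

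Many, but not all, partners of NKX2-1 in lung epithelium were present. Of 24 lung epithelial transcription factors, GRHL2 was in no file and 2 had at most 3 counts in each library. Of the 19 that were tested, 2 rose and 1 fell (median log2 fold change -0.12). Over all genes 5.89% and 5.64% did. Without scramble replicate 3, 20 were tested, and 6 rose and 7 fell, where 25.7% and 23.8% of all genes did. FOXA2, a forkhead factor that acts on surfactant promoters, fell from 50.9 to 23.1 CPM (-1.14, SE 0.19, adjusted p = 0.00512 by edgeR), KLF5 rose (1.19, adjusted p = 0.00686) and so did ID2 (0.80, adjusted p = 0.00821). ELF3 (-0.26, adjusted p = 0.418) and TEAD1 (0.45, adjusted p = 0.437) did not pass. Of 12 gut and liver lineage factors 10 were tested, and NR1H4 (1.20) and ONECUT2 (1.23) rose and 0 fell (5 and 2 without scramble replicate 3), with HNF4A at 9.28 and 9.3 FPKM in the scramble and knockdown groups. Of these factors 0 were called without knockdown replicate 1, 2 or 3 or by limma on log2(FPKM + 0.1), and 1 without scramble replicate 2 or with RLE scaling.

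LPCAT1 was set beside 30 genes of phosphatidylcholine and surfactant lipid synthesis. Of these 2 rose and 0 fell, where 11.5% of all genes were called (list median log2 fold change -0.01; 12 and 5 without scramble replicate 3, where 49.5% of all genes were called). The desaturase gene SCD rose (1.13, adjusted p = 0.00115 by edgeR) and so did INSIG1 (1.37, adjusted p = 0.000666), which holds the SREBP precursors back. The citrate lyase gene ACLY (0.11) and the lipogenic factor gene SREBF1 (0.11) were not called. Of 33 tested genes for making, filling and releasing lamellar bodies, 2 rose and 2 fell (median 0.05; 9 and 9 without scramble replicate 3). The fusion protein gene VAMP8 rose from 1.8 to 9.54 CPM (2.40, adjusted p = 0.000377), and RAB38 (-1.29), which acts in the biogenesis of these organelles, and RAB3D (-0.79) fell. P2RY2, the ATP receptor that triggers surfactant release, rose (0.68, adjusted p = 0.0467), and ANXA2 (-0.02) and CTSB (-0.29) were not called. Without knockdown replicate 1, 2 or 3 the count called was 1, and without scramble replicate 1 it was 2. The count called higher was 1 by DESeq2, with upper-quartile scaling, with no filter, with the replicate block and by limma on log2(FPKM + 0.1). It was also 1 with scramble replicate 1 or 2, or any 1 knockdown library, left out.

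Of 10 tested ion and phosphate transport genes of the alveolus, CA2 (1.57) and the phosphate exporter gene XPR1 (1.44) rose and 0 fell (median 0.25; 7 and 0 without scramble replicate 3), with ATP1B1 (0.24) not called. Among 9 tested RAGE ligands and partners, the genes for the calcium-binding proteins S100A9 (6.29, from 1, 3 and 5 counts in the scramble libraries), S100P (1.26) and S100A4 (0.73) rose and 0 fell (median 0.33; 7 and 2 without scramble replicate 3), with HMGB1 (0.33) and S100A11 (0.01) not called by edgeR. Over 12 tested relatives of SFTPD, SFTPB, NAPSA, LAMP3 and NKX2-1 the median log2 fold change was 0.20, and the saposin gene PSAP (-0.19) and the protease gene CTSD (0.37) were not called.

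Markers of other lung cells were measured beside these. The club cell genes SCGB1A1, SCGB3A1 and SCGB3A2 were in no file, and of 5 tested club and goblet markers the mucin gene MUC5B (2.04) and SLPI (1.12) rose, with MUC5AC (-0.54) and LCN2 (0.15) not called. Without scramble replicate 3, 3 were higher and 1 lower, the latter being MUC5AC (-0.32, adjusted p = 1.13e-05 by edgeR), and without knockdown replicate 2, 1 was higher. Of 5 ciliated cell markers tested 0 were called by edgeR with all 6 libraries, with TPPP3 at 0.04 and CAPS at -0.30, and 2 had an unadjusted p under 0.05. DESeq2 called 1, and 2 were called without scramble replicate 3. TEKT1 was in no file. Of 6 basal cell markers tested KRT6A rose and NGFR (-2.28) fell, with DLK2 (-0.56) and DSC3 (-0.10) not called. KRT6A went from 0, 0 and 1 estimated counts in the scramble libraries to 12.86, 16.6 and 15.3 in the knockdown libraries. No fold is given for it, since the scramble counts lie under the floor of 3. The basal markers TP63, KRT5 and KRT14 had at most 6 counts in each library and were not tested. Summed FPKM of 8 endothelial markers was 0.49 to 1.05 in the scramble libraries and 0.65 to 0.89 in the knockdown libraries. That of 8 fibroblast markers was 7.36 to 8.52 and 4.54 to 4.62, where COL1A1 (-0.75) fell and TCF21 (-0.88) was not called. COL1A1, at 6.97 and 3.98 FPKM on average in the 2 groups, made up most of the fibroblast sum. The fibroblast genes COL1A2, COL3A1, DCN and PDGFRB had at most 2 counts in each library. LUM went the other way from COL1A1, with 0 counts in each scramble library and 5, 6 and 4 in the knockdown libraries. It did not pass the filter. With no filter, and by limma on log2(FPKM + 0.1), 1 fibroblast marker was called higher. Leaving out any 1 knockdown library ended the COL1A1 call, and the endothelial gene TEK was in no file. The immune genes CD3E, FCGR3A, MRC1, MS4A1 and TYROBP were in no file. The lysosomal gene CD68, at 22.3 and 26.6 FPKM in the 2 groups, made up most of the immune sum of 21.4 to 26.6 FPKM in the scramble and 25.8 to 28.8 FPKM in the knockdown libraries, and PTPRC was at 0.78 and 0.843 FPKM. The part of other cells in the changes above was not tested.

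Other genes followed the same pattern over the 6 libraries. By Pearson correlation of log2 CPM with 11722 genes of at least 5 CPM, the closest to LPCAT1 were TNS4, CASP9 and C1QTNF6 (r from 0.9998 to 0.9999), to LAMP3 AP2B1, FN1 and RNASEH2B (0.9979 to 0.9998) and to ABCA3 SLC39A14, SLC47A1 and SARS1 (0.9989 to 0.9996). For ETV5 they were ATXN2L, BCAM and SESN2 (0.9992 to 0.9994), for AGER PXN-AS1, CCNB2 and PIGP (0.9913 to 0.9919) and for SFTPB TTC12, SFXN4 and LRRN2 (0.9894 to 0.9919). Genes with r over 0.99 numbered 241 for ETV5, 223 for ABCA3, 134 for LPCAT1, 28 for LAMP3, 5 for AGER and 2 for SFTPB. With 6 libraries in 2 groups and 1 library apart, such values are reached by many genes, and they are a description only.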

How the data were processed

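RNA of A549 cells was measured in 3 scramble and 3 C19orf12 knockdown libraries. The authors deposited, per gene, RSEM expected counts (estimated counts that need not be whole) and FPKM, scaled for length and depth, and, per the file headers, the mean length of its transcripts. BWA, Bowtie2, RSEM and genome build hg19 are named, per the submitters' processing notes; which step used which is not given in the sources used here. Genes absent from a file were taken as 0. Entrez IDs were matched to RefSeq symbols (GRCh38.p14, 20727 of 20824; unmatched IDs held 0.147% of counts), and upstream sequences came from that build, ending 53 bases before the start to leave out 5′ exons.

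Rounded counts entered edgeR 4.0.16 (R 4.3.3): filterByExpr (minimum count 10, minimum total 15), TMM, glmQLFit and glmQLFTest, knockdown against scramble without covariates, Benjamini-Hochberg over all 14812 genes. SE is the fold change over the square root of F. CPM are TMM-scaled, and the floor is 3 counts. GC content came from GENCODE transcripts. The procedure was tested on simulated data.

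Alternatives were RLE and upper-quartile scaling, 2 other filters, a replicate block, each library left out, DESeq2 1.42.0, limma-voom (limma 3.58.1) with and without quality weights, and limma on log2(FPKM + 0.1). Named are the 10 genes, C19orf12, up to 4 called genes with the smallest p and up to 2 uncalled genes with the highest CPM of each list, the markers of other cells in no file, and the 3 genes most like each member with at least 1 CPM. The 10 genes and the lists were chosen with earlier results of these data known, so no count over them is independent evidence. Some genes that this rule names are not reported here. The floor covers counting error only; SEs include the scatter between libraries.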

Additional observations from a re-analysis of the deposited data

How the results depend on the processing

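Directions of the 6 tested genes were the same under all 15 alternatives. LPCAT1 (1.76 to 2.01) and LAMP3 (-1.55 to -1.42) were called in each, ABCA3 (-0.96 to -0.69) in 12 and ETV5 (-1.07 to -0.80) in 13, and SFTPB (0.07 to 0.48) in none. AGER (-0.80 to -0.48) was called only by limma-voom with quality weights (-0.48, adjusted p = 0.04), which gave scramble replicate 3 a weight of 0.0444 and the other libraries 1.8 to 1.99. With a single library left out, 2 to 4 of the 10 genes were called, and 2 without knockdown replicate 2 or 3. Leaving out a library gave 729 to 7439 genes called over all genes, and quality weights gave 7327, against 1708. The log2 fold change of C19orf12 was -1.08 to -0.73 with a library left out, and its call was lost without any 1 knockdown library. The cause of these differences was not tested. With the replicate number as a block, 1654 genes and the same 4 of the 10 were called, and C19orf12 was at -0.93. The labels give no pairing of the samples. Deviations of same-numbered libraries from their group means correlated at -0.0239, -0.0181 and -0.0232. These values cannot decide on pairing, since scramble replicate 3 stood far apart within its group. Depth limits SFTPD, NAPSA, NKX2-1 and SLC34A2, which had at most 12.84 estimated counts in a library. By limma on log2(FPKM + 0.1), SFTPD was at -0.73 (adjusted p = 0.176).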
